A study of Mus musculus with 8 samples.

Results

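The genes described here are 7 genes of GABA and glycine transmission in the retina: Gad1, Gad2, Slc32a1, Slc6a9, Gabrr1, Gabrr2 and Glra1. They were chosen by gene name for their role, with earlier results of these data known, and each name had a single row among the 54532 genes of the deposited tables. All 7 passed the filter on low counts, with 141 to 5524 counts per library, and entered the test over 17725 genes. The tissue was retina of rd10 mice, a strain with a Pde6b mutation and inherited loss of photoreceptors, and both groups carried that label. The sIVs group, small intracellular vesicles by the title of the series, had 4 libraries numbered 2 to 5, and the PBS group, labelled control, had 4 libraries numbered 1 to 4. The sources used here give no vesicle source, dose, route, age, sex, strain background or sampling time. They do not say whether a library came from 1 animal or a pool, and p-values here measure only the spread among libraries, which may be technical. Library totals ran from 14640235 to 15948291 counts in PBS and from 15039385 to 16989737 in sIVs.

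GABA and glycine are the inhibitory transmitters of the retina. Amacrine cells release one or the other onto bipolar, ganglion and other amacrine cells, and horizontal cells express the GABA synthetic machinery in the outer retina. Gad1 and Gad2 encode the enzymes that make GABA from glutamate, and Slc32a1 encodes the transporter that loads GABA and glycine into synaptic vesicles. Slc6a9 encodes a plasma membrane glycine transporter, which in the retina marks glycinergic amacrine cells. Gabrr1 and Gabrr2 encode rho subunits, which form slowly closing GABA-gated chloride channels on the terminals of bipolar cells. Glra1 encodes an alpha subunit of the glycine-gated chloride channel.

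None of the 7 genes passed edgeR's quasi-likelihood (QL) test of sIVs against PBS after Benjamini-Hochberg adjustment over all genes, and 0% of all genes did. Fold changes ran from 0.875 for Slc6a9 to 1.14 for Gabrr2. For the 6 genes other than Glra1 the 95% intervals lay between 0.769-fold and 1.35-fold. For Glra1, the gene of lowest count, the interval was wider, from 0.717-fold to 1.48-fold. Gad2 (higher) and Slc6a9 (lower) had an unadjusted p under 0.05, 2 of 7 genes, against 15.2% of all genes. Of the 7, 4 had a positive fold change, against 49% of all genes. Their median log2 fold change was 0.002, beside -0.005 over all genes. Without sIVs libraries 3 and 4 the median of the 7 turned to -0.13, beside -0.001 over all genes. DESeq2 called 571 genes, 3.22% of the 17725 that passed the filter, and none of the 7. It gave no adjusted p to 1378 of those 17725 genes. Limma-voom with sample quality weights called 28.1% of all genes, and Gad2 and Gabrr2 of the 7. Without sIVs library 2 edgeR called 7.39% of all genes, and without sIVs libraries 3 and 4 it called 0.0164%, with none of the 7 in either fit.

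Photoreceptor transcripts set sIVs libraries 3 and 4 apart from the other 6. The summed level of 8 rod markers stood at 0.23 and 0.217 times the PBS mean there, at 1.03 and 0.82 times in sIVs libraries 2 and 5, and at 0.912 to 1.11 times in PBS. Fold changes, list medians and log2 ratios are also given without sIVs libraries 3 and 4 where that turned the sign or moved the value by over 1.5 times, and for each of the 7 genes. Retinal markers matched the label, with 12 of 12 amacrine, 9 of 9 rod bipolar, 8 of 8 Müller glia and 8 of 8 ganglion cell markers among the tested genes, and none of 7 lens markers. Also among them were 8 of 8 pigment epithelium markers and 3 of 5 oligodendrocyte markers. The pigment epithelium list, which shares Rlbp1 with the Müller glia list, was uneven. It summed to 338 to 556 CPM in PBS and 155 to 655 CPM in sIVs. In bulk retina, fewer cells of a type and less RNA per cell cannot be told apart.

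Coordinates are those of the deposited gene table, which for all 7 genes equal GENCODE M21 on GRCm38. Gabrr2 and Gabrr1 are neighbours on chromosome 4 and lie on the same strand, 36655 bases apart with no annotated gene between them. Gad1 and Gad2 lie far apart on chromosome 2. The 250 bases before the RefSeq start site (GRCm38.p6, forward strand) are shown for these related pairs. The pairs were chosen because the ratio of levels within each, given below, did not overlap between the groups. With all libraries neither ratio passed after adjustment (exact permutation adjusted p = 0.0714 each). How many of all gene pairs separate so was not measured. A link between the windows and the ratios was not tested. RefSeq windows were found for 6 of the 7 genes. RefSeq start sites are not the starts of the gene table: the Gad1 window lies inside the Gad1 interval of that table, and the other windows shown run across the table's starts. The windows are chr2:70561879-70562128 for Gad1, chr2:22622077-22622326 for Gad2, chr4:33132306-33132555 for Gabrr1 and chr4:33062862-33063111 for Gabrr2. Capitals mark matches on either strand to 4 motifs, none of which overlap. They are TAATCC, the core bound by the homeodomain factors CRX and OTX2 of photoreceptors and bipolar cells, the core promoter element TATAAA, the Sp-factor site GGGCGG, and the upstream promoter element CCAAT.
Gad1: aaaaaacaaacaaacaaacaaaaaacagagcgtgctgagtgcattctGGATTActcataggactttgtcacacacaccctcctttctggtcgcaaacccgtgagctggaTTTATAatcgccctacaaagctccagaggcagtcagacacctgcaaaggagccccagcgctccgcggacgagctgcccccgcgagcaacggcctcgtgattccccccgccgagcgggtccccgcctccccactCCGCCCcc
Gad2: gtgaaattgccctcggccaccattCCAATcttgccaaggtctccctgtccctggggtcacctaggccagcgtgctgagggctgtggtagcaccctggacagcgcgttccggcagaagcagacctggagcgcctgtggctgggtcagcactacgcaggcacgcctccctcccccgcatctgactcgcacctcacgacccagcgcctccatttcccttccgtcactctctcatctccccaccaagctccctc
Gabrr1: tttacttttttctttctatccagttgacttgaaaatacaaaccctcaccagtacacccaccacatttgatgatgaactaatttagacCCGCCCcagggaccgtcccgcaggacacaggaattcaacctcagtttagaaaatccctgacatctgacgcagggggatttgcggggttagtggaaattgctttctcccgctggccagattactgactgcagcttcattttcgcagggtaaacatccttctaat
Gabrr2: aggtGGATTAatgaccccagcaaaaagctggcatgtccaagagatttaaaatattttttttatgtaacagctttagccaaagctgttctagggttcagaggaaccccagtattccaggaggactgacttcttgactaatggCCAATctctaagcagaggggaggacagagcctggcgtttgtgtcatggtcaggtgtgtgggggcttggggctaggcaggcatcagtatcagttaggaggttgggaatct
Within each pair the windows held different matches. The Gad1 window held TAATCC starting 203 bases before the start site, the element TATAAA 141 bases before it and the site GGGCGG 8 bases before it, each on the reverse strand, and the Gad2 window held a single CCAAT. The Gabrr1 window held GGGCGG on the reverse strand, and the Gabrr2 window held TAATCC on the reverse strand near its far end and CCAAT on the forward strand. Of 32851 such windows of mouse genes, 6.25% held the motif TAATCC, 12.4% held the element TATAAA, 32.7% held the site GGGCGG and 33.8% held the element CCAAT. CG pairs numbered 17 in the Gad1 window, 13 in Gad2, 7 in Gabrr1 and 1 in Gabrr2, against a median of 6. A match is a description of the letters and not a measured site.

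Levels are given in FPKM, fragments per kilobase of gene length scaled to the size of the library, so that genes can be compared with each other. In PBS the order was Gabrr1 (45.0 ± 1.84 FPKM), Gad1 (42.0 ± 3.29), Slc32a1 (34.7 ± 4.35), Gabrr2 (32.9 ± 2.45), Slc6a9 (24.6 ± 2.02), Gad2 (12.4 ± 0.348) and Glra1 (5.37 ± 0.904; all SD, n = 4). Gabrr1 and Gad1 overlapped between PBS libraries, as did Gad1 and Slc32a1, and Slc32a1 and Gabrr2. Within libraries, Gabrr1 and Gad1 changed places between PBS libraries, as did Slc32a1 and Gabrr2, while Slc32a1 lay below Gad1 in each of the 4. Slc6a9, Gad2 and Glra1 each lay below every library of the gene before it. In sIVs the levels were 41.8 ± 3.68 FPKM for Gabrr1, 39.4 ± 0.424 for Gad1, 37.6 ± 5.33 for Gabrr2, 34.8 ± 4.29 for Slc32a1, 21.5 ± 1.60 for Slc6a9, 13.8 ± 0.775 for Gad2 and 5.54 ± 1.83 for Glra1 (SD, n = 4). Slc32a1 and Gabrr2 changed places there, and their libraries overlapped in both groups.

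**Figure D1:**
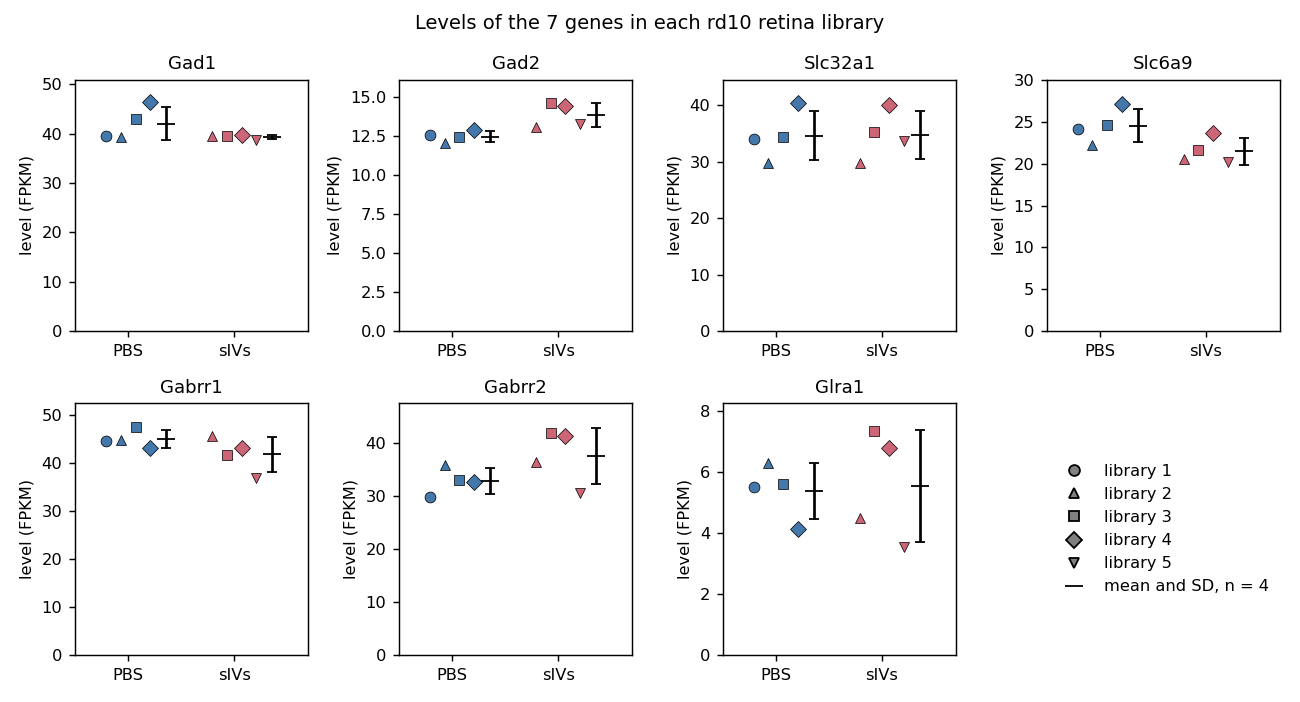
Level of each gene in FPKM (vertical axis from 0, own scale per panel) in the PBS and sIVs libraries, with 1 point per library and the mean and SD of 4 beside them. Gad2 is the gene whose groups do not overlap, at 12.0 to 12.8 FPKM in PBS and 13.1 to 14.6 FPKM in sIVs; equal library numbers do not mark pairs.

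GABA synthesis is represented by Gad1 and Gad2. Gad1 (ENSMUSG00000070880, chromosome 2, 70553072 to 70602014, forward strand) stood at 39.6, 39.3, 42.9 and 46.3 FPKM in PBS libraries 1 to 4 and at 39.5, 39.5, 39.8 and 38.8 FPKM in sIVs libraries 2 to 5. The sIVs values lay within or just below the PBS range. Its fold change was 0.936 (95% interval 0.833 to 1.05, edgeR QL adjusted p = 0.579). The 4 sIVs libraries were nearly level for Gad1, with a coefficient of variation of 1.10% in CPM, near the counting error of 1.43%, against 8.13% in PBS. The log2 fold change of Gad1 was -0.11 without sIVs libraries 3 and 4, beside -0.10 with all libraries. Gad1 overlaps the antisense gene Gad1os, which held 1 to 5 counts per library.

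Gad2 (ENSMUSG00000026787, chromosome 2, 22622205 to 22693874, forward strand) encodes the form of the enzyme that is concentrated at nerve terminals. It stood at 12.5, 12.0, 12.4 and 12.8 FPKM in PBS and at 13.1, 14.6, 14.4 and 13.3 FPKM in sIVs. Every sIVs library lay above every PBS library, which among the 7 genes was so for Gad2 alone and among all genes for 4.42%. The fold change was 1.11 (95% interval 1.01 to 1.23, edgeR QL unadjusted p = 0.0405, adjusted p = 0.309). Sample quality weights gave a log2 fold change of 0.21 and a pass (limma-voom adjusted p = 0.0139), and over the other 11 settings with all libraries and the 8 that left out 1 library Gad2 did not pass. Its adjusted p ran from 0.0139 to 0.662 over all alternatives. Without sIVs libraries 3 and 4 its log2 fold change was 0.08 ± 0.07 (SE, edgeR QL adjusted p = 0.662), as against 0.15 ± 0.06 with them.

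Slc32a1 (ENSMUSG00000037771, chromosome 2, 158610767 to 158615748, forward strand) stood at 34.1, 29.8, 34.5 and 40.4 FPKM in PBS and at 29.8, 35.4, 40.2 and 33.6 FPKM in sIVs. The groups covered nearly the same range. The log2 fold change was 0.002 ± 0.11 (SE, 95% interval -0.25 to 0.26, edgeR QL adjusted p = 0.995), and -0.13 without sIVs libraries 3 and 4. PBS library 4 and sIVs library 4 were the highest for this gene, and PBS library 2 and sIVs library 2 the lowest.

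Slc6a9 (ENSMUSG00000028542, chromosome 4, 117834506 to 117875198, forward strand) stood at 24.1, 22.3, 24.6 and 27.2 FPKM in PBS and at 20.5, 21.6, 23.7 and 20.1 FPKM in sIVs. Libraries 2, 3 and 5 of sIVs lay below every PBS library and library 4 lay within the PBS range. The fold change was 0.875 (95% interval 0.769 to 0.996, edgeR QL unadjusted p = 0.0442, adjusted p = 0.316). Without sIVs libraries 3 and 4 the log2 fold change was -0.28 ± 0.08, beside -0.19 ± 0.08 with all libraries (SE, edgeR QL adjusted p = 0.227 without them). The 3' part of Slc6a9 overlaps B4galt2 and Ccdc24 on the other strand, which held 615 to 884 and 91 to 375 counts per library. The sources used here do not give the strand setting of the authors' counting, so reads there may have been assigned to either gene.

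Gabrr1 (ENSMUSG00000028280, chromosome 4, 33132521 to 33163588, forward strand) stood at 44.5, 44.8, 47.5 and 43.1 FPKM in PBS and at 45.5, 41.7, 43.1 and 36.8 FPKM in sIVs. Libraries 3 and 5 of sIVs lay below the PBS range in FPKM, library 4 stood at its lower edge and library 2 within it. The fold change was 0.927 (95% interval 0.824 to 1.04, edgeR QL adjusted p = 0.522). The log2 fold change of Gabrr1 was -0.14 without sIVs libraries 3 and 4, beside -0.11 with all libraries. Gabrr2 (ENSMUSG00000023267, chromosome 4, 33062999 to 33095865, forward strand) stood at 29.9, 35.8, 33.1 and 32.7 FPKM in PBS and at 36.5, 42.0, 41.5 and 30.5 FPKM in sIVs. Libraries 2, 3 and 4 of sIVs lay above every PBS library, and library 5 lay within the PBS range. The fold change was 1.14 (95% interval 0.968 to 1.35, edgeR QL adjusted p = 0.425). Without sIVs libraries 3 and 4, the highest for Gabrr2, the log2 fold change was 0.02 ± 0.09, beside 0.19 ± 0.11 with all libraries (SE, edgeR QL adjusted p = 0.948 without them). With sample quality weights Gabrr2 stood at 0.31 and passed (limma-voom adjusted p = 0.0167), with adjusted p from 0.0167 to 0.948 over all alternatives.

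Glra1 (ENSMUSG00000000263, chromosome 11, 55514238 to 55608198, reverse strand) was the least abundant of the 7, with 141 to 298 counts per library. It stood at 5.49, 6.28, 5.60 and 4.12 FPKM in PBS and at 4.47, 7.35, 6.80 and 3.52 FPKM in sIVs. Libraries 3 and 4 of sIVs lay above every PBS library, library 5 below every PBS library and library 2 within the range, so the direction differed within the sIVs group. The coefficient of variation in CPM was 33.3% in sIVs and 16.6% in PBS, against a counting error of 6.93%. The log2 fold change was 0.04 ± 0.23 (SE, edgeR QL adjusted p = 0.948). It turned to -0.44 ± 0.18 without sIVs libraries 3 and 4 (edgeR QL adjusted p = 0.322).

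**Figure D2:**
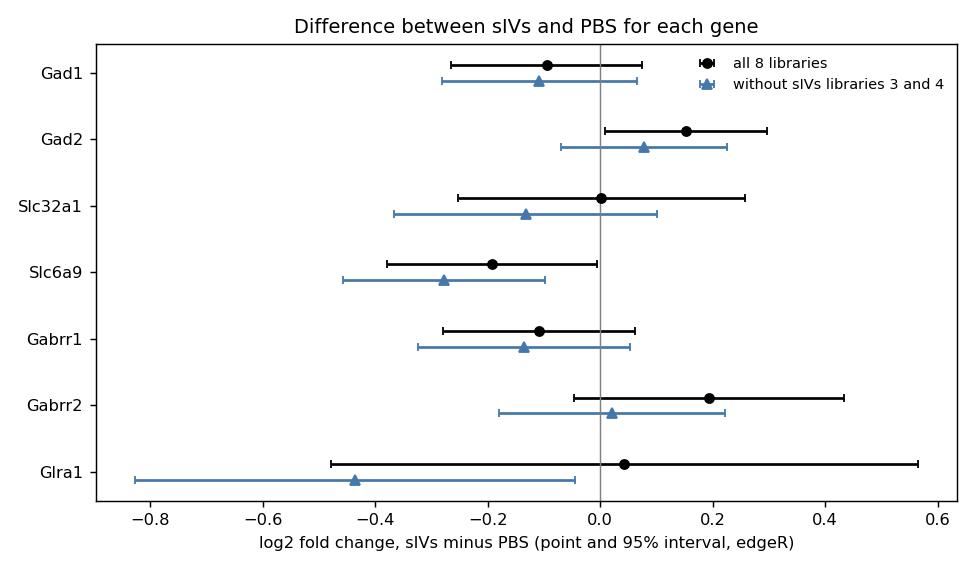
Log2 fold change of each gene, sIVs minus PBS (horizontal axis), as the edgeR estimate with its 95% interval, for all 8 libraries (circles) and without sIVs libraries 3 and 4 (triangles). Gad2 and Slc6a9 have intervals clear of 0 before adjustment with all libraries, and Slc32a1 and Glra1 change sign between the fits, Glra1 from 0.04 to -0.44.

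Ratios between genes of the same library do not depend on how the library is scaled. The 5 ratios below were each given an exact permutation test (two-sided, 70 relabellings), with a smallest possible p of 0.0286, adjusted over the 5. Gad1 exceeded Gad2 by 3.16, 3.28, 3.46 and 3.61 times in PBS and by 3.02, 2.70, 2.76 and 2.92 times in sIVs. Every sIVs library had a lower ratio than every PBS library (means 3.38 ± 0.198 and 2.85 ± 0.146, SD, n = 4 each, exact permutation p = 0.0286, adjusted p = 0.0714). The difference in the log2 ratio of Gad1 to Gad2 was -0.24, and -0.18 without sIVs libraries 3 and 4.

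Gabrr1 exceeded Gabrr2 by 1.49, 1.25, 1.44 and 1.32 times in PBS. In sIVs the ratio of Gabrr1 to Gabrr2 was 1.25, 0.992, 1.04 and 1.20, so that the 2 genes were nearly equal in libraries 3 and 4. The sIVs values lay below every PBS value, although sIVs library 2 (1.246) was barely below PBS library 2 (1.249). The means were 1.37 ± 0.110 and 1.12 ± 0.124 (SD, n = 4 each, exact permutation p = 0.0286, adjusted p = 0.0714). The difference in the log2 ratio was -0.30, and -0.16 without sIVs libraries 3 and 4. Without sIVs library 2 the ratios Gad1 to Gad2, Gabrr1 to Gabrr2 and Slc6a9 to Slc32a1 had an adjusted p of 0.0476 each by exact permutation. For the first pair of ratios the unadjusted p was 0.0286 with and without that library, and the adjusted value moved because the ratio of Slc6a9 to Slc32a1 then also reached the smallest possible p. With any other single library left out none of these 3 ratios passed, with adjusted p from 0.0714 to 0.143 by exact permutation. Without sIVs libraries 3 and 4 the unadjusted p of each of these 3 ratios was 0.133 by exact permutation. With 2 sIVs libraries left, the relabellings are too few for that test to reach 0.05, so it decides nothing there.

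Slc6a9 stood at 0.708, 0.749, 0.714 and 0.674 times Slc32a1 in PBS and at 0.688, 0.611, 0.590 and 0.599 times in sIVs. Libraries 3, 4 and 5 of sIVs lay below every PBS library (exact permutation p = 0.0571, adjusted p = 0.0952). Slc32a1 stood at 0.823 ± 0.0533 times Gad1 in PBS and 0.882 ± 0.104 times in sIVs (SD, n = 4 each, exact permutation p = 0.400, adjusted p = 0.500). Glra1 stood at 0.295 ± 0.0592 times Glrb, the gene of the beta subunit that anchors glycine receptors at synapses, in PBS and at 0.275 ± 0.0647 times in sIVs (SD, n = 4 each, exact permutation p = 0.657, adjusted p = 0.657). These last ratios overlapped between the groups. Without sIVs libraries 3 and 4 the difference in the log2 ratio of Glra1 to Glrb moved from -0.11 to -0.39, and that of Slc32a1 to Gad1 turned from 0.09 to -0.023.

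**Figure D3:**
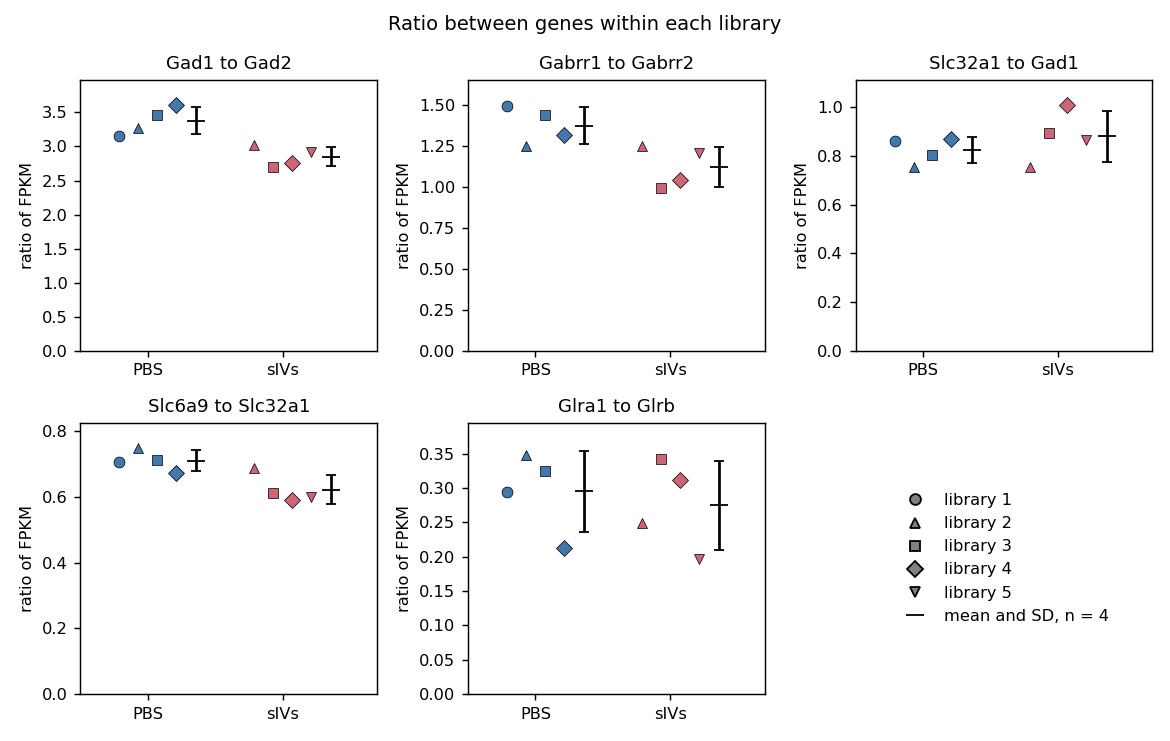
Ratio of FPKM between the genes named above each panel (vertical axis from 0) in every PBS and sIVs library, with the mean and SD of 4. For Gad1 to Gad2 the sIVs libraries lie at 2.70 to 3.02 and the PBS libraries at 3.16 to 3.61, and the ratio of Gabrr1 to Gabrr2 is closest to 1 in sIVs libraries 3 and 4.

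Transcripts of cell type markers were measured in the same libraries. The median of 12 amacrine markers, in log2 relative to the PBS mean, was -0.08, 0.15, 0.17 and -0.15 in sIVs libraries 2 to 5, and ran from -0.08 to 0.07 in PBS. Gad1 stood at -0.09, -0.09, -0.08 and -0.11 on the same scale, without the rise of the amacrine median in libraries 3 and 4, and Gad2 at 0.07, 0.23, 0.21 and 0.09. The median of 9 rod bipolar markers was -0.10, 0.09, 0.12 and -0.27, that of Gabrr1 0.01, -0.11, -0.06 and -0.29, and that of Gabrr2 0.15, 0.36, 0.34 and -0.10. Gabrr1 was lowest in sIVs library 5, where the rod bipolar median was also lowest, as was the amacrine median. In sIVs libraries 3 and 4 Gabrr1 lay below the PBS mean and the rod bipolar median above it. Horizontal cell markers, 8 of 9 tested, had medians of -0.19, 0.08, 0.23 and -0.17. Summed levels of the amacrine list ran from 1404 to 1519 CPM in PBS and from 1318 to 1574 CPM in sIVs, and those of the rod bipolar list from 1522 to 1721 and from 1423 to 1864 CPM. Of the 12 amacrine markers 6 had a positive fold change, and 0 passed the edgeR test. Rod bipolar markers had 3 of 9 positive and 0 passing, where 49% of all genes were positive. Without sIVs library 2, 1 of the 9 passed, as did 7.39% of all genes. No marker of either list was at 0. Their median log2 fold changes moved from 0.00 to -0.11 for amacrine and from -0.04 to -0.19 for rod bipolar markers without sIVs libraries 3 and 4. The part of cell numbers in the values of the 7 genes was not tested.

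**Figure D4:**
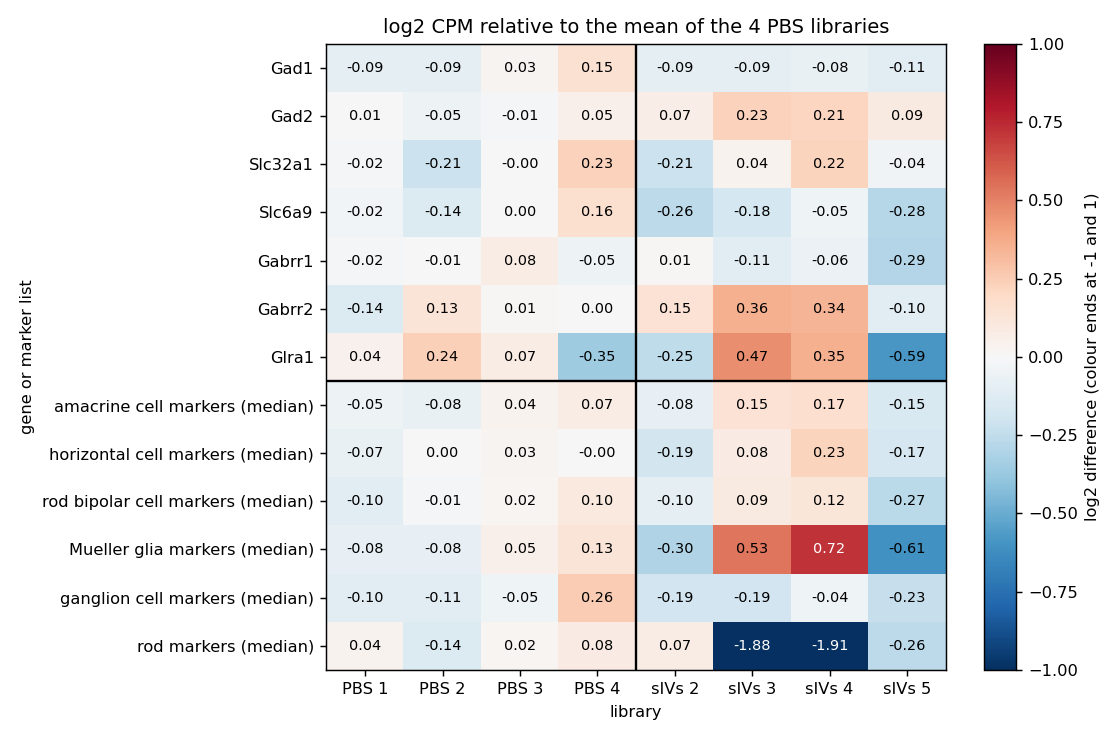
Log2 CPM of the 7 genes (upper rows) and median of each marker list (lower rows) relative to the mean of the PBS libraries, for each library (columns), with blue lower and red higher. Rod markers are at -1.88 and -1.91 in sIVs libraries 3 and 4, beyond the ends of the colour scale, while the 7 genes lie between -0.59 and 0.47 over all libraries.

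Over the 8 libraries the 7 genes did not vary as a block. Pearson's r between members ranged from -0.43 for Gad2 and Gabrr1 to 0.84 for Gad1 and Slc6a9, as a description over 8 libraries that share the same scaling. Gad1 and Gad2 had an r of -0.20, Gabrr1 and Gabrr2 of 0.11, and Gabrr2 and Glra1 of 0.70. Among 11935 other protein-coding genes of at least 5 CPM, the most alike to Gad1 were Nrip3 and Ppp2r2c (r = 0.97 and 0.96). Those most alike to Gad2 were Actb and Nab2 (0.99 each), to Slc32a1 Ndufb6 and Ndfip2 (0.99 and 0.98) and to Slc6a9 Adra2c and Il17d (0.99 and 0.97). Zfp747 and Slc9a7 were most alike to Gabrr1 (0.96 and 0.95), Sppl2a and Cask to Gabrr2 (0.98 and 0.97) and Slc4a8 and Dcun1d4 to Glra1 (0.98 each). The highest values among so many genes over 8 libraries are high by selection.

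The rest of the pathway was read from 7 lists with 51 genes, of which 49 were tested. None passed in either direction by the edgeR test (0 of 49). At an unadjusted p under 0.05, 1 was higher (Gldc), against 9.61% of all genes, and 4 were lower (Gabra2, Gabra3, Gabrb2 and Kctd16), against 5.63%. Of the 49, 16 had a positive fold change (32.7%, against 49% of all genes), and their median log2 fold change was -0.06. Without sIVs libraries 3 and 4 the median was -0.16. Gabra6, an alpha subunit gene known from the cerebellum, had no counts in any library, and Gabrp was too low to test.

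Slc6a11, a plasma membrane GABA transporter gene, stood at 61.1 ± 4.27 FPKM in PBS and 56.1 ± 7.36 FPKM in sIVs (SD, n = 4 each, edgeR QL adjusted p = 0.600). It was lowest in sIVs library 5, at 47.0 FPKM, where the median of 8 Müller glia markers was also lowest, at -0.61 relative to PBS. The amacrine and rod bipolar medians were lowest there too, at -0.15 and -0.27. In sIVs libraries 3 and 4 the Müller glia median was 0.53 and 0.72, and Slc6a11 stood at -0.05 and 0.08 on the same scale. The part of Müller glia in the Slc6a11 values was not tested. Slc6a13, a related transporter gene, had the smallest p of the uptake and breakdown list, at 6.76 ± 1.06 FPKM in PBS and 5.91, 4.88, 2.50 and 5.94 FPKM in sIVs libraries 2 to 5 (log2 fold change -0.50, edgeR QL adjusted p = 0.369). Of this list 0 of 6 genes passed, with a median log2 fold change of -0.03. The list median was -0.20 without sIVs libraries 3 and 4, where Slc6a11 moved from -0.12 to -0.28 and Slc6a13 from -0.50 to -0.19.

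Glycine metabolism was represented by Dld, Gcsh and Gldc, which encode parts of the glycine cleavage system. Gldc, the decarboxylase, stood at 16.0, 15.8, 14.5 and 14.9 FPKM in PBS and at 14.8, 30.6, 31.6 and 14.1 FPKM in sIVs. The increase was in sIVs libraries 3 and 4 alone, and its log2 fold change turned from 0.58 ± 0.26 to -0.09 without them (SE, edgeR QL adjusted p = 0.326 with all libraries). The Müller glia median was 0.53 and 0.72 in the same libraries. The summed level of those 8 markers was not raised there, at 4861 and 5319 CPM against 4751 to 6329 CPM in PBS. A sum is weighted toward abundant markers, so it can differ from the median. Glul, an abundant marker among the 8, lay below every PBS library in sIVs libraries 3 and 4, as given below. Over all libraries 5 of the 8 had a positive fold change and 3 a negative one. The part of Müller glia in the Gldc values was not tested. Dld and Gcsh had log2 fold changes of -0.11 and 0.09 (edgeR QL adjusted p = 0.522 and 0.680). Of the 9 genes of glycine transport and metabolism, 5 had a positive fold change and 0 passed. Their median turned from 0.09 to -0.0090 without sIVs libraries 3 and 4, where Gcsh also turned to -0.0090 and Dld moved to -0.0075.

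GABA-A receptor subunits form the fast GABA-gated chloride channels. Of 15 tested, 11 were on the negative side, the median log2 fold change was -0.11, and 0 passed, where 49% of all genes were on the positive side. The median was -0.20 without sIVs libraries 3 and 4. Gabrb2 had the smallest p of the list, at 6.21, 7.18, 7.35 and 6.73 FPKM in PBS and at 5.29, 5.92, 6.34 and 5.21 FPKM in sIVs. For Gabrb2, 3 of 4 sIVs libraries lay below every PBS library (log2 fold change -0.27 ± 0.09 SE, edgeR QL adjusted p = 0.226, and -0.39 without libraries 3 and 4). Every sIVs library of Gabra3, named after its values were seen, lay below every PBS library (log2 fold change -0.26, edgeR QL adjusted p = 0.326, and -0.40 without libraries 3 and 4).

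GABA-B receptors are G protein-coupled. Gabbr1 and Gabbr2, their subunits, had log2 fold changes of -0.07 and -0.17 (edgeR QL adjusted p = 0.605 and 0.435). Kctd16, an auxiliary subunit gene, stood at 6.62, 7.82, 4.78 and 5.86 FPKM in PBS and at 3.63, 5.59, 5.22 and 3.09 FPKM in sIVs, lowest in sIVs libraries 2 and 5 (log2 fold change -0.52, edgeR QL adjusted p = 0.321, and -0.91 without libraries 3 and 4). Of the 5 genes of this list 0 passed. Its median moved from -0.07 to -0.24, and Gabbr2 to -0.26, without sIVs libraries 3 and 4. Among the other glycine receptor subunits, Glrb had a log2 fold change of 0.11 and Glra2 of -0.18 (edgeR QL adjusted p = 0.580 and 0.423), with 0 of 4 passing. Glrb turned to -0.038 without sIVs libraries 3 and 4, and the median of the 4 moved from -0.13 to -0.20.

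Inhibitory postsynaptic scaffold genes were close to level. Nlgn2, an adhesion molecule of inhibitory synapses, stood at 33.6 ± 0.503 FPKM in PBS and 32.6 ± 2.42 FPKM in sIVs, and Iqsec3, an exchange factor that binds gephyrin, at 32.5 ± 1.95 and 30.8 ± 2.76 FPKM (SD, n = 4 each, edgeR QL adjusted p = 0.789 and 0.701). Lhfpl4, a GABA-A receptor auxiliary subunit gene, had the smallest p, with a log2 fold change of -0.14 (edgeR QL adjusted p = 0.361). Nlgn2 turned from -0.05 to 0.0086, and Iqsec3 moved from -0.08 to -0.20, without sIVs libraries 3 and 4. Of 8 scaffold genes 7 had a negative fold change and 0 passed. Chloride transport sets whether GABA inhibits a neuron. Slc12a5, the neuronal chloride extruder gene, stood at 150.6, 152.6, 159.0 and 159.8 FPKM in PBS and at 142.4, 142.9, 140.5 and 132.3 FPKM in sIVs. Every sIVs library lay below every PBS library for Slc12a5 (log2 fold change -0.16 ± 0.08 SE, edgeR QL adjusted p = 0.388), a separation found in 2 of the 49 pathway genes (Gabra3 is the other) and in 3.36% of all genes. Slc12a2, which encodes the chloride importer, had a log2 fold change of 0.16 ± 0.08 (SE, edgeR QL adjusted p = 0.412), and 0.02 without sIVs libraries 3 and 4.

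**Figure D5:**
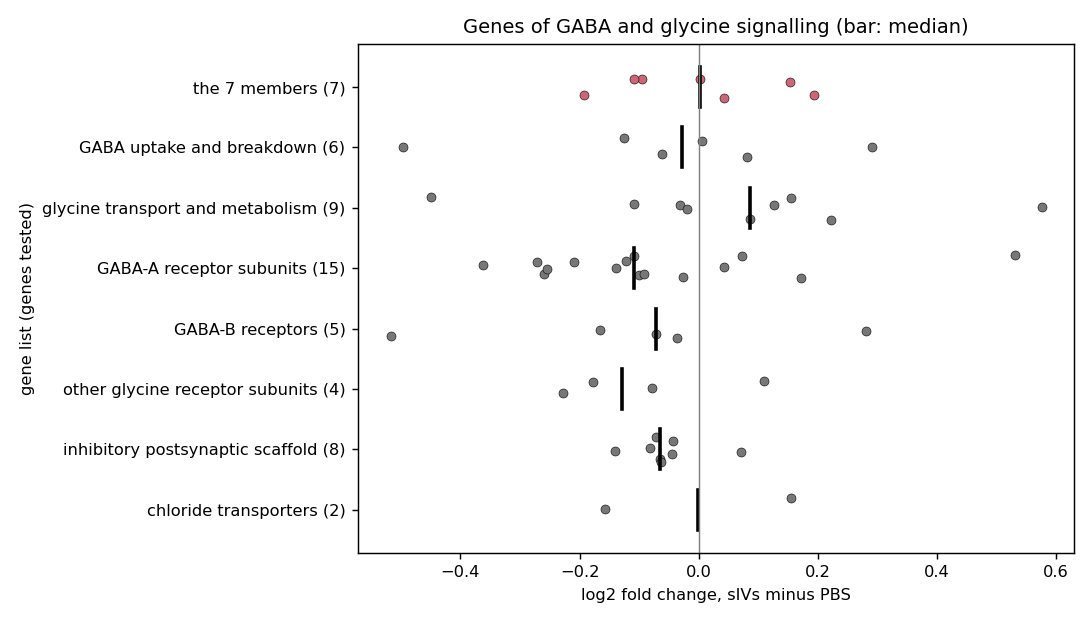
Log2 fold change, sIVs minus PBS (horizontal axis), of the 7 genes (red) and of the tested genes of each pathway list (grey), with 1 point per gene, scattered vertically for legibility, and a bar at the list median. The 7 genes lie between -0.19 and 0.19, and the GABA-A receptor subunits have a median of -0.11.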

How the data were processed

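The authors deposited whole-number, unnormalised counts per gene and an FPKM table for the same 54532 genes and 8 libraries. TRIzol RNA was enriched for polyadenylated RNA and sequenced as strand-marked (dUTP) paired ends, per the labels' protocols. The submitters' processing notes name mm10. Aligner, counter, annotation release and the strand setting of counting are not given in the sources used here. In the files, the deposited FPKM equalled count per gene length and library total times 1 constant per library (0.930 to 1.03), within 0.1%.

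The main test was edgeR 4.0.16 under R 4.3.3 on counts (filterByExpr, TMM scaling, quasi-likelihood test, Benjamini-Hochberg over 17725 genes, threshold 0.05). CPM values use the TMM-adjusted library size. Standard errors and 95% intervals came from the F statistic. Ratios of FPKM were compared by exact permutation. Alternatives used limma 3.58.1 and DESeq2 1.42.0, other scalings and filters, log2(FPKM + 0.1) and log2(FPKM + 1), left-out libraries and replicate blocks. Leaving out sIVs libraries 3 and 4 was chosen after seeing the data. The 2 most abundant genes and the gene of smallest p were named per pathway list, and the 2 genes of highest r per member. Some genes that this rule names are not reported here. Members and lists were chosen with earlier results of these data known. The tests were tested on simulated data. No library pair agreed within sampling noise. Promoter windows came from RefSeq (GRCm38.p6).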

Additional observations from a re-analysis of the deposited data

How the results depend on the processing

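Over 21 alternatives each, Gad1, Gad2, Slc6a9, Gabrr1 and Gabrr2 kept their direction. With all libraries and with 1 left out, none of the 7 genes passed, except Gad2 (0.21) and Gabrr2 (0.31) under limma-voom with sample quality weights, where 2 of the 7 passed. All genes past the threshold numbered 0 in edgeR and 4973 with those weights, 571 by DESeq2, 152 with no filter on low counts, 1331 without sIVs library 2 and 3 without sIVs libraries 3 and 4. The cause was not tested. Glra1, at a log2 fold change of 0.04, turned to -0.0041 by limma-voom, -0.0025 on log2(FPKM + 0.1) and -0.44 without sIVs libraries 3 and 4. Slc32a1, at 0.002, turned to -0.13 there, and the Slc32a1 to Gad1 ratio to -0.023. Leaving out 1 library gave ranges of -0.12 to 0.21 for Glra1, -0.076 to 0.084 for Slc32a1, -0.13 to -0.04 for Gad1, 0.12 to 0.18 for Gad2, -0.24 to -0.14 for Slc6a9, -0.15 to -0.05 for Gabrr1 and 0.13 to 0.28 for Gabrr2. The log2 ratio differences ranged from -0.27 to -0.21 for Gad1 to Gad2, -0.35 to -0.24 for Gabrr1 to Gabrr2, -0.24 to -0.17 for Slc6a9 to Slc32a1, 0.03 to 0.17 for Slc32a1 to Gad1 and -0.26 to 0.040 for Glra1 to Glrb. Scaling by library totals moved the median of all genes to 0.07 and reversed none of the 7. The numbers in the labels do not state a pairing, and deviations of same-numbered libraries correlated at -0.06 to 0.05 by title number and -0.07 to 0.10 by biosample number. Under a replicate block 0 genes passed by either numbering, with Gad2 at 0.17 and 0.15 and Slc6a9 at -0.17 and -0.19, and 1 of 6 and 4 of 8 libraries correlated best with their own number. Counting error was 6.93% for Glra1, below its coefficient of variation of 16.6% in PBS and 33.3% in sIVs, and 1.43% for Gad1, near that of its sIVs libraries (1.10%).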

Other observations

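Glul, the glutamine synthetase gene of Müller glia, whose product feeds transmitter glutamate and GABA synthesis, was named after its values were seen. It stood at 601.5, 576.9, 765.2 and 811.2 FPKM in PBS and at 494.2, 295.2, 327.7 and 301.0 FPKM in sIVs. Every sIVs library lay below every PBS library, as was so for 3.36% of all genes. The log2 fold change of Glul was -0.96 ± 0.19 (SE, edgeR QL adjusted p = 0.153), and -0.80 without sIVs libraries 3 and 4. The median of 8 Müller glia markers, Glul among them, was 0.13 with all libraries and -0.45 without sIVs libraries 3 and 4. Of these 8 markers 5 had a positive fold change with all libraries, and that of Glul was the lowest. Markers of oligodendrocytes, which ensheath the optic nerve and not the mouse retina, summed to 213.2 CPM in sIVs library 3 and to 39.7 to 52.8 CPM in the other 7 libraries. For Gad1, Slc32a1, Slc6a9 and Gabrr1 sIVs library 3 lay within the range of the other sIVs libraries. It was the highest sIVs library for Gad2, Gabrr2 and Glra1, at 14.6, 42.0 and 7.35 FPKM. Library 4 of sIVs, where the oligodendrocyte markers summed to 46.7 CPM, was close to it at 14.4, 41.5 and 6.80 FPKM. A link between these markers and the 7 genes was not tested.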
